A study of Arabidopsis thaliana with 15 samples.

Results

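The response of an unwounded leaf to the wounding of another leaf was followed in 6 of the 15 RNA-seq libraries of the series, all made from leaf 6 of *Arabidopsis* WT plants (accession Col-0) grown on MS medium at 22 °C under 10 h light and 14 h dark for 22 to 24 days. The wounding group holds 3 libraries of leaf 6 collected 1 h after leaf 1 was wounded, in a way that the labels do not describe. The wounding mock group holds 3 libraries of leaf 6 collected before wounding. Libraries were assigned to the groups by these labels. The other 9 libraries were made 1 h after 100 mM GSH or 100 mM Glu was applied to leaf 1, or without a small molecule (mock). They serve below to show where the wounding response differs. In the study's methods the solutions went onto the edge of a leaf 1 that had been cut earlier and left to recover. The labels do not say whether leaf 1 of mock plants was cut, so mock leaves are called untreated below only for lacking a small molecule. Neither the wounding nor the wounding mock group is said to come from separately grown plants or from how many plants. The p values therefore measure the spread between these libraries. Because wounding mock leaves were collected before the wound was made, the 1 h that passed, with its change in time of day, cannot be told apart from wounding. In whole leaves, fewer cells of a type and less RNA per cell cannot be told apart either.

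Wounding of an *Arabidopsis* leaf sends electrical and calcium signals through the vasculature to leaves that share vascular connections with it. In such distal leaves the hormone jasmonate (JA) is made within minutes from chloroplast fatty acids, and its active form JA-Ile binds the receptor COI1 together with JAZ proteins. The JAZ proteins, which otherwise hold the transcription factor MYC2 and its relatives inactive, are then degraded. MYC factors switch on defense genes, among them those of glucosinolate synthesis, and also the JAZ genes and the genes of JA breakdown, which limit the response. Growth and photosynthesis genes are known to be held back while JA signaling is active. The comparison of the wounding group with the wounding mock group asks which of these gene groups had moved in leaf 6 by 1 h.

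Expression was given as FPKM, read fragments scaled to transcript length and library size, and library depth is not known from such values. Between 21090 and 21532 genes were above 0 in 5 of the 6 libraries, and 18664 in wounding mock replicate 1, whose correlation with its 2 group mates was 0.976 and 0.977 on the log2(FPKM + 1) scale. Genes that averaged 1 to 2 FPKM in the other replicates were listed at 0 in 11.76% of cases in that library and in at most 1.497% in the others. The comparison was therefore repeated without it, as given below. Markers fitted the leaf label. The 5 mesophyll markers, which include RBCS1A and LHCB1.3, summed to 21600 to 22990 FPKM after wounding and to 25870 to 29260 FPKM in wounding mock, and phloem markers to 106 to 115.5 FPKM after wounding, against 138 to 161 FPKM in wounding mock. The meristem genes STM, WUS and CLV3 and the root genes COBL9, EXPA7 and PHT1;1 were listed at 0 in all 6 libraries. The part of these marker differences in the results below was not tested.

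Wounding of leaf 1 was followed by increases that were larger and more frequent than the decreases. Values were compared on the log2(FPKM + 1) scale with limma. Differentially expressed genes (DEGs) passed 2 thresholds, an adjusted p below 0.05 and a log2 fold change beyond 1 in either direction. The added 1 FPKM understates the change of genes with low expression. Of 16803 genes tested, 888 (5.28%) rose and 459 (2.73%) fell, so that 8.02% were DEGs. The raised DEGs had a median log2 fold change of 1.69, and 342 of them were above 2, 74 above 4 and 37 above 5. The lowered DEGs had a median of −1.23, with 29 beyond −2 and 2 beyond −3. The raised DEGs were transcripts with a median level of 19.6 FPKM after wounding and 4.17 FPKM in wounding mock, and 22 of them were listed at 0 in every wounding mock library. The lowered DEGs had a median level of 3.67 FPKM after wounding and 11.3 FPKM in wounding mock, and none of them was listed at 0 in every wounding library. Over all genes tested the median log2 fold change was −0.07. By the adjusted p alone 8.76% of genes were higher and 10.9% lower, or 1472 and 1831 genes, while after median-of-ratios scaling of the libraries these were 1795 and 1314 genes. All wounding libraries lay above all wounding mock libraries for 14.3% of genes and below them for 24.7%. These shares are the background for the counts below of genes in a list without overlap between the groups. All 888 raised and all 459 lowered DEGs were without overlap, so for a DEG the lack of overlap adds nothing to the call.

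**Figure D1:**
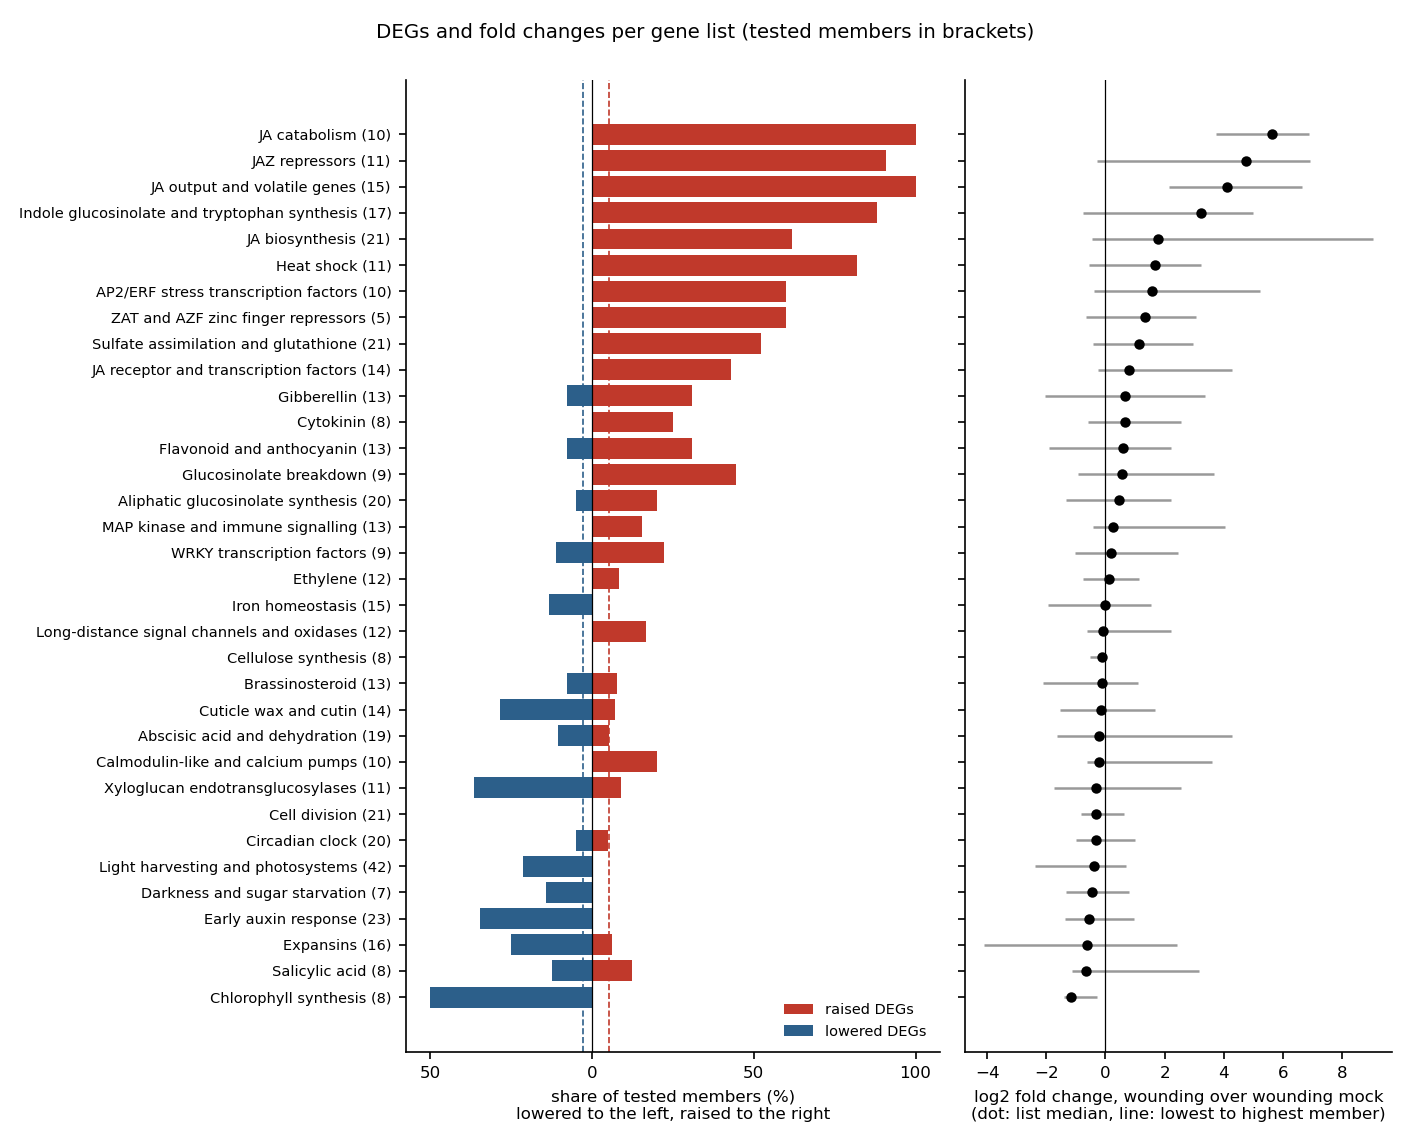
Share of tested members that were raised (red, to the right) or lowered (blue, to the left) DEGs in 34 gene lists, in percent, and the median (dot) and range (line) of their log2 fold changes, wounding over wounding mock; dashed lines mark the shares over all genes tested. All 10 tested JA catabolism genes rose, while the chlorophyll synthesis list, with 4 of 8 lowered, lies at the other end.

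The JAZ repressors rose almost as a family. Of 13 JAZ genes, 11 passed the filter on low expression and 10 of them rose, with a median log2 fold change of 4.77, against 5.28% of all genes tested. JAZ10, whose splice forms are known to make the repressor resistant to degradation, had 198, 186 and 179 FPKM after wounding, against 1.36, 0.421 and 0.108 FPKM in wounding mock (limma log2 fold change 6.93 with a standard error of 0.26, adjusted p = 2.4e-06). JAZ9 was the most abundant member, at 861, 816 and 816 FPKM after wounding, against 5.12, 12.4 and 11.8 FPKM in wounding mock. In both genes the lowest wounding library lay far above the highest wounding mock library. JAZ13, a non-canonical family member, had 22.5, 29.9 and 26.7 FPKM after wounding and was listed at 0 in all 3 wounding mock libraries. JAZ7 had 5.39, 7.65 and 7.31 FPKM after wounding and was likewise listed at 0 in wounding mock. JAZ5 averaged 71.7 ± 2.89 FPKM after wounding and 0.416 ± 0.0549 FPKM in wounding mock (SD, n = 3 each). JAZ1, JAZ2, JAZ3 and JAZ6 had log2 fold changes of 5.14, 3.58, 3.68 and 5.27. The smallest rise was that of JAZ12, with 136, 139 and 134 FPKM after wounding, against 50.2, 51.1 and 44.1 FPKM in wounding mock (log2 fold change 1.48). JAZ11 stood apart, with 4.12, 3.84 and 4.11 FPKM after wounding, against 6.61, 4.68 and 4.22 FPKM in wounding mock and a log2 fold change of −0.28 (adjusted p = 0.32 by limma). JAZ4 and JAZ8 were below the filter, and JAZ8 was listed at 0.945, 1.754 and 2.39 FPKM after wounding and at 0 in every wounding mock library. JAZ10, JAZ12 and JAZ13 overlap other annotated genes, and since the strand of the libraries is not stated, reads of the partners cannot be told apart.

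MYC transcription factors bind the G-box CACGTG, and promoters of JA genes are shown here because the data hold both members with this motif and members without it. The motif was searched on both strands, which for this palindrome are the same, in the 250 bases before each annotated gene start in RefSeq's TAIR10.1. It was present in 15% of the raised DEGs (133 of 888), in 6.32% of the lowered DEGs (29 of 459) and in 7.47% of the promoters of all genes tested (1248 of 16709). Among the 33 DEGs of the lists of JAZ repressors, JA biosynthesis and JA catabolism it was present in 6. The windows of JAZ2 (chr1:28150447-28150696, minus strand), JAZ3 (chr3:6119457-6119706, plus strand) and JAZ13 (chr3:7879811-7880060, minus strand) hold it, with G-boxes that begin 66 bases before the gene start in JAZ2, 140 and 82 bases in JAZ3 and 95 bases in JAZ13. That of AOC1 (chr3:9403529-9403778, plus strand), the gene with the largest rise of all, does not hold these letters. That of LHCB2.3 (chr3:10255656-10255905, plus strand), a light harvesting gene described below that fell, holds 1 at 88 bases. G-boxes are in capitals. These matches are descriptions of letters in a window and not binding sites.
JAZ2: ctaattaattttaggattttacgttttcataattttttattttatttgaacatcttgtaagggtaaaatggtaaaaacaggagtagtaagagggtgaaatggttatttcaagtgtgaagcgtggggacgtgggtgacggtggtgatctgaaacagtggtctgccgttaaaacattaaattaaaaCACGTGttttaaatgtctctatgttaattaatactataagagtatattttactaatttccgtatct
JAZ3: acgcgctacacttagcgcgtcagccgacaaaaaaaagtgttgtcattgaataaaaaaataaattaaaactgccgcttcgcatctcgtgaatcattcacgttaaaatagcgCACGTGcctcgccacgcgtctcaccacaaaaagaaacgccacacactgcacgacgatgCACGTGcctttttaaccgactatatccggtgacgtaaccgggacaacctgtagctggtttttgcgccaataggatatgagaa
JAZ13: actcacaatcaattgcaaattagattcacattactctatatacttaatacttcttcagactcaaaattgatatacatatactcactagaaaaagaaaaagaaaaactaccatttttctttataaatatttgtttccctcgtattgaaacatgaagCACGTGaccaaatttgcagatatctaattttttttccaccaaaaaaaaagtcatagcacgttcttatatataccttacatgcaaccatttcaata
AOC1: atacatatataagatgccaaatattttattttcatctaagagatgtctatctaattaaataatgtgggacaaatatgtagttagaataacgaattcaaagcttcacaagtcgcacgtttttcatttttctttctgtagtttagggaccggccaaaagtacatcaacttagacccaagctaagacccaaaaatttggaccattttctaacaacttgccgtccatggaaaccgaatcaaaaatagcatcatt
LHCB2.3: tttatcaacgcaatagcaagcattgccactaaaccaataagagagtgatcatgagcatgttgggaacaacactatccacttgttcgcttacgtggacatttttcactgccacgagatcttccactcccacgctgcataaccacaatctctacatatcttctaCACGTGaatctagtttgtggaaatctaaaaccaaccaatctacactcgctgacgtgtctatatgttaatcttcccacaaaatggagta

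The core CGCGTT of the rapid stress response element was present in 3.38% of the raised DEGs and 0.654% of the lowered DEGs, against 2.63% of all genes tested. The W-box TTGACC or TTGACT, bound by WRKY factors, was present in 28.2% of the raised and 29% of the lowered DEGs, against 26.9% of all. The evening element AAAATATCT, bound by clock factors, was present in 3.15% of the raised and 4.79% of the lowered DEGs, against 2.56% of all. Both strands were searched in the same 250 bases for each.

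At least 1 gene rose at each main step of JA synthesis, from the lipoxygenases to the enzyme that joins JA to isoleucine. Of 21 tested genes of this list 13 rose and none fell, with a median log2 fold change of 1.79. AOC1, an allene oxide cyclase, had 947, 882 and 879 FPKM after wounding, against 0, 1.21 and 1.29 FPKM in wounding mock (limma log2 fold change 9.04 with a standard error of 0.30, adjusted p = 1.4e-06). AOC2 was the more abundant copy in wounding mock, with 2154, 2174 and 2111 FPKM after wounding, against 139, 132 and 130.2 FPKM in wounding mock. The 4 allene oxide cyclase genes are close relatives, so the split of reads among AOC1, AOC2 and AOC3 is uncertain, but AOC3 and AOC4 rose as well, with log2 fold changes of 3.39 and 1.48. Of the lipoxygenases, LOX2 had the highest level, 4071 ± 173 FPKM after wounding and 449 ± 54.3 FPKM in wounding mock (SD, n = 3 each). LOX3 and LOX4 rose more, with log2 fold changes of 4.93 and 5.37, and LOX6 less, with 1.04. AOS, the allene oxide synthase, had 2072, 1995 and 1977 FPKM after wounding, against 71.6, 76.8 and 87.0 FPKM in wounding mock, a log2 fold change of 4.67. OPR3, the OPDA reductase of the peroxisome, had 836, 741 and 769 FPKM after wounding, against 17.79, 25.2 and 20.4 FPKM in wounding mock (limma log2 fold change 5.16 with a standard error of 0.13, adjusted p = 5.0e-07). Each of these genes had 3 wounding libraries within a narrow band and, like every raised DEG, no overlap with wounding mock. OPCL1, a CoA ligase of the next step, and ACX1, an acyl-CoA oxidase of the β-oxidation that follows, had log2 fold changes of 3.99 and 1.79. JAR1, which forms JA-Ile, averaged 244 ± 8.99 FPKM after wounding and 35.0 ± 6.09 FPKM in wounding mock (SD, n = 3 each). The other enzymes of β-oxidation on the list, KAT2, AIM1 and ACX5, were not DEGs, with log2 fold changes of −0.13, −0.32 and −0.36. Neither were the desaturase genes FAD3 and FAD7, with −0.45 and 0.34. DAD1, a lipase, stayed below the filter, at 1.21, 0.614 and 0.893 FPKM after wounding and 0 in every wounding mock library.

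Removal of JA was the group with the largest changes. All 10 tested genes of JA catabolism rose, with a median log2 fold change of 5.63. The cytochrome P450 genes of JA-Ile oxidation were near or at 0 before wounding. CYP94B1, a hydroxylase of JA-Ile, had 121, 102 and 104 FPKM after wounding, against 0, 0.0236 and 0.0154 FPKM in wounding mock (limma log2 fold change 6.76 with a standard error of 0.12, adjusted p = 1.3e-07). CYP94C1, which carries the oxidation further, had 23.2, 21.4 and 19.7 FPKM after wounding, against 0.187, 0.272 and 0.121 FPKM in wounding mock. CYP94B3 was listed at 0 in each wounding mock library, so that its log2 fold change of 6.90 depends on the 1 FPKM added and no ratio is given. The JA oxidases, which hydroxylate JA itself, followed. JOX2 had 212, 187 and 192 FPKM after wounding, against 0, 1.61 and 1.32 FPKM in wounding mock. JOX4 had 68.4, 65.5 and 65.8 FPKM after wounding, against 0, 0.0802 and 0.0436 FPKM in wounding mock. JOX3 averaged 31.3 ± 1.1 FPKM after wounding and 0.0334 ± 0.0579 FPKM in wounding mock (SD, n = 3 each), while JOX1 was at or below 0.119 FPKM in all 6 libraries. The amidohydrolases that split JA-Ile rose too. IAR3 had 289, 300.5 and 306 FPKM after wounding, against 5.09, 7.13 and 5.69 FPKM in wounding mock, and ILL6 rose by 5.83 on the log2 scale. ST2A, a sulfotransferase of hydroxylated JA, and JMT, the enzyme of methyl jasmonate formation, had log2 fold changes of 3.75 and 4.44.

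**Figure D2:**
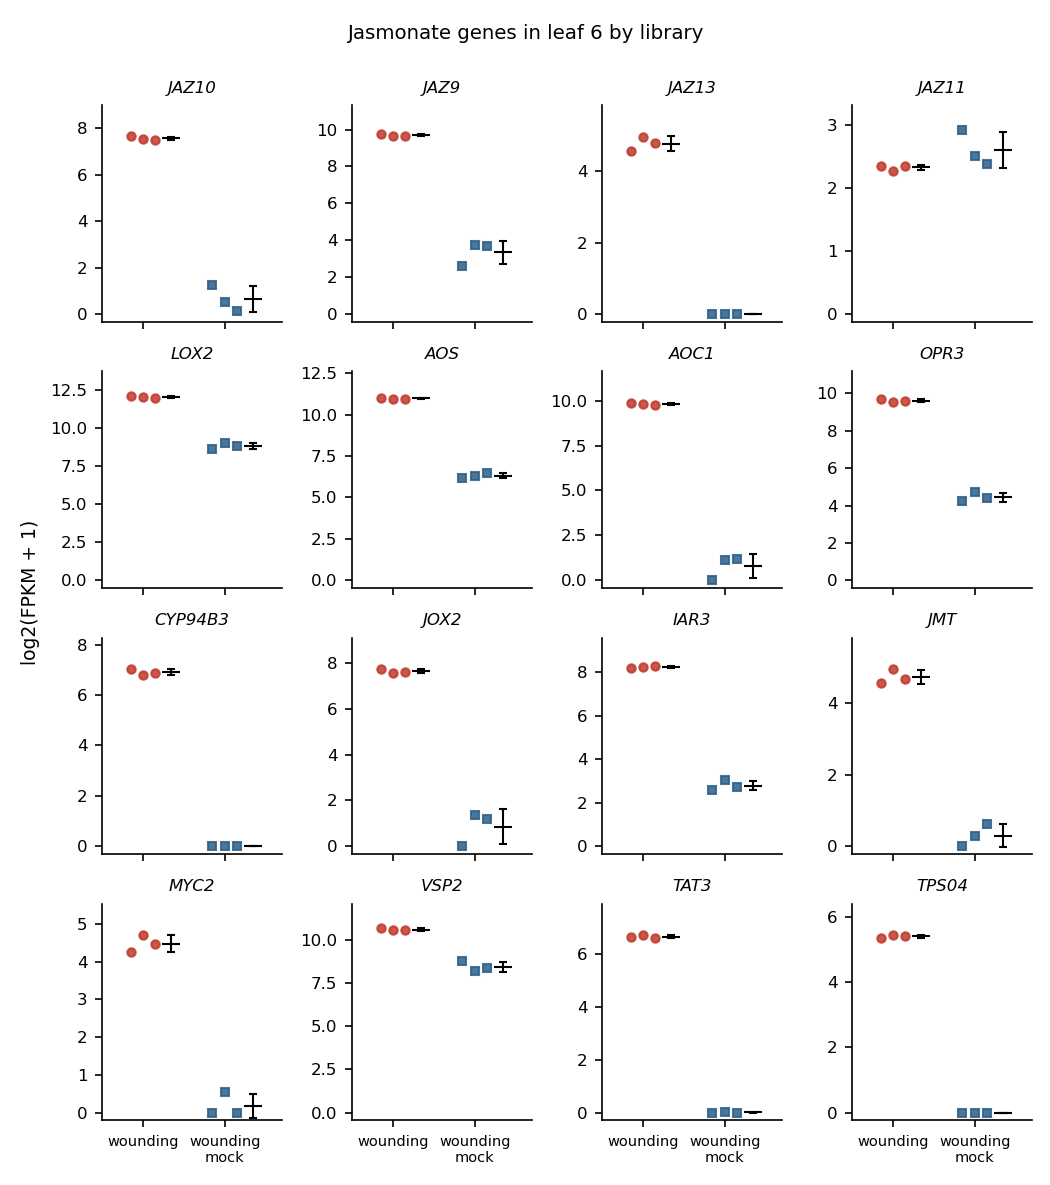
Expression of 16 JA genes as log2(FPKM + 1) in the 3 wounding libraries (red circles) and the 3 wounding mock libraries (blue squares), with the mean and SD of each group beside them. All but JAZ11 have every wounding library above every wounding mock library.

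The receptor and the transcription factors of the pathway changed less evenly. Of 14 tested genes 6 rose and none fell, with a median log2 fold change of 0.78. MYC2, the main activator, had 18.1, 25 and 20.9 FPKM after wounding, against 0, 0.462 and 0 FPKM in wounding mock (limma log2 fold change 4.29 with a standard error of 0.20, adjusted p = 8.0e-06), and it overlaps a gene on the opposite strand. MYC3 and MYC4, its close relatives, were already present in wounding mock and had log2 fold changes of 0.66 and 0.41, both with an adjusted p under 0.05 but short of the threshold on fold change. The receptor COI1 had 8.12, 8.69 and 7.97 FPKM after wounding, against 9.93, 10.7 and 9.27 FPKM in wounding mock, a log2 fold change of −0.24 (adjusted p = 0.2 by limma). Among the repressors, JAM1, a bHLH factor that opposes MYC2, had 40.9, 45.2 and 42.8 FPKM after wounding, against 8.94, 10.3 and 9.55 FPKM in wounding mock. NINJA, the adaptor that joins JAZ proteins to the corepressor TOPLESS, rose by 1.4 on the log2 scale. Activators and repressors of the pathway were thus both among the raised genes. ANAC019 and ANAC072, NAC factors known to act downstream of MYC2, had log2 fold changes of 3.3 and 1.97, and JAV1, a repressor of defense, had 1.28. ORA59 and ERF1, which drive the branch of the response that needs ethylene, were at most 0.346 FPKM in any of the 6 libraries, and PDF1.2, the usual marker of that branch, was listed at 0 in all 6.

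All 15 tested genes of the list of JA output and volatile genes, which act in defense or make volatiles, rose, with a median log2 fold change of 4.11. TAT3, a tyrosine aminotransferase, had 99.2, 105 and 96.0 FPKM after wounding, against 0, 0.0217 and 0 FPKM in wounding mock (limma log2 fold change 6.65 with a standard error of 0.11, adjusted p = 1.3e-07). CLH1, a chlorophyllase, was among the most abundant transcripts of the list, at 2240, 2037 and 2100 FPKM after wounding, against 45.3, 53.9 and 37.3 FPKM in wounding mock. ARGAH2, an arginase that breaks down an amino acid insects need, averaged 869 ± 17.9 FPKM after wounding and 30.5 ± 9.29 FPKM in wounding mock (SD, n = 3 each). The vegetative storage protein genes are used in many studies as JA markers. VSP2 had 1624, 1505 and 1483 FPKM after wounding, against 428, 292 and 332 FPKM in wounding mock (log2 fold change 2.15). VSP1 had 908, 811 and 822 FPKM after wounding, against 105, 49.6 and 39.5 FPKM in wounding mock (log2 fold change 3.82). In the mock group of the GSH and Glu experiment, however, the untreated leaves had more of both. VSP2 averaged 1537 FPKM after wounding and 2906 FPKM in that mock group, and VSP1 averaged 847 FPKM after wounding and 1717 FPKM in that mock group. The direction of both therefore depended on which untreated leaves were used. Enzymes of volatile synthesis were less dependent on it. TPS04, the geranyllinalool synthase, had 39.9, 42.5 and 41.2 FPKM after wounding and was listed at 0 in all 3 wounding mock libraries. CYP82G1, which turns its product into a homoterpene, had 35.4, 31.1 and 33.6 FPKM after wounding, against 0, 0.174 and 0 FPKM in wounding mock. Both had log2 fold changes above 5 over either untreated group (5.40 and 5.40 for TPS04, 5.02 and 5.06 for CYP82G1). BSMT1, a methyltransferase of benzenoid volatiles, had 20.0, 19.5 and 17.3 FPKM after wounding and was listed at 0 in wounding mock. The green leaf volatile genes HPL1 and CHAT rose by 3.97 and 3.72 on the log2 scale over wounding mock and by 2.06 and 1.82 over the other mock group.

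Indole glucosinolate synthesis rose as a pathway, together with the synthesis of its precursor tryptophan. Glucosinolates are sulfur-rich defense compounds of Brassicaceae, and the indole class is built on tryptophan. Of 17 tested genes 15 rose and none fell, with a median log2 fold change of 3.24. MYB34, an activator of the pathway, had 132, 134 and 127 FPKM after wounding, against 9.63, 12.1 and 11.5 FPKM in wounding mock (limma log2 fold change 3.45 with a standard error of 0.11, adjusted p = 1.1e-06). ASA1, the first enzyme of tryptophan synthesis, had 199, 197 and 192 FPKM after wounding, against 18.3, 16.5 and 19.3 FPKM in wounding mock. Later steps of tryptophan synthesis moved with it, IGPS by 3.15, TSA1 by 2.66 and TSB1 by 1.53 on the log2 scale. CYP79B3, which turns tryptophan into its oxime, had 338, 318 and 312 FPKM after wounding, against 8.69, 10.6 and 8.51 FPKM in wounding mock. CYP79B2, which does the same, had 188, 168 and 166 FPKM after wounding, against 19.9, 15.8 and 17.0 FPKM in wounding mock. CYP83B1 converts the oxime and averaged 799 ± 51.0 FPKM after wounding and 66.1 ± 14.1 FPKM in wounding mock (SD, n = 3 each). The glutamyl peptidase GGP1, the glucosyltransferase UGT74B1 and the sulfotransferase SOT16 complete the core, with log2 fold changes of 3.47, 2.06 and 3.78. From oxime to sulfotransferase, each of these enzymes was above wounding mock in every library, as was every raised DEG. IGMT5, a methyltransferase that modifies the indole ring, had 783, 732 and 732 FPKM after wounding, against 35.2, 32.1 and 41.9 FPKM in wounding mock. MYB51, another activator, had 0.403, 0.410 and 0.187 FPKM after wounding, against 1.41, 1.16 and 1.19 FPKM in wounding mock, an adjusted p of 0.02 and a log2 fold change of −0.76, within the threshold on fold change.

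Aliphatic glucosinolate synthesis, built on methionine, did not move as a block. Of 20 tested genes 4 rose and 1 fell, beside 5.28% and 2.73% of all genes tested, and the median log2 fold change was 0.45. The gene that fell was MYB28, the main activator of the aliphatic pathway, with 12.8, 15.5 and 14.6 FPKM after wounding, against 26.7, 40.8 and 47.4 FPKM in wounding mock (limma log2 fold change −1.33 with a standard error of 0.21, adjusted p = 0.0038). SOT17, a sulfotransferase, and SUR1, a C-S lyase that serves both classes, rose by 2.21 and 1.84. The chain elongation gene MAM1 had 195, 193 and 189.8 FPKM after wounding, against 126, 140.2 and 196 FPKM in wounding mock and was not a DEG. BCAT4, an aminotransferase of the first step, had a log2 fold change of 1.06 over wounding mock but of −0.41 over the other mock group. In glucosinolate breakdown, 4 of 9 tested genes rose. The myrosinase genes TGG1 and TGG2 themselves were not among them, and TGG1 had a log2 fold change of −0.23. Those that rose act around the myrosinases, namely the nitrile specifier NSP1, the myrosinase-associated MVP1, and the myrosinase-binding MBP1 and MBP2. NSP1 had 264, 308 and 279 FPKM after wounding, against 27.8, 50.9 and 50.9 FPKM in wounding mock. MVP1 rose by 2.74 and MBP2 by 3.67 on the log2 scale. MBP1 was at 6.63 ± 1.65 FPKM after wounding and 0.555 ± 0.528 FPKM in wounding mock (SD, n = 3 each), and its log2 fold change over the other mock group was −0.07.

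Genes that supply sulfur moved in the same direction. Of 21 tested genes of sulfate assimilation and glutathione metabolism 11 rose and none fell, with a median log2 fold change of 1.14. APK1 and APK2 make the active sulfate that glucosinolate sulfotransferases use. APK1 had 244, 246 and 249 FPKM after wounding, against 20.3, 34.1 and 42.6 FPKM in wounding mock (limma log2 fold change 2.95 with a standard error of 0.24, adjusted p = 0.00014), and APK2 rose by 2.25. ATP sulfurylases stand before them, and ATPS3 had 79.2, 91.7 and 84.1 FPKM after wounding, against 10.2, 12.6 and 14.4 FPKM in wounding mock. ATPS1 rose by 1.36 on the log2 scale. Of the APS reductases, APR1 and APR3 rose, by 1.97 and 1.36. APR2 had 26.9, 53.0 and 39.3 FPKM after wounding, against 19.1, 21.8 and 18.1 FPKM in wounding mock, with an adjusted p of 0.026 and a log2 fold change of 0.93, short of the threshold. SDI1, a repressor of glucosinolate synthesis under sulfur shortage, rose by 2.42. Glutathione synthesis has 2 steps, and the genes differed. PAD2, which encodes the first and rate-limiting enzyme and is the gene altered in the GSH-deficient mutant of the study, had 94.1, 119 and 104 FPKM after wounding, against 81.7, 92.0 and 89.4 FPKM in wounding mock, a log2 fold change of 0.26 (adjusted p = 0.17 by limma). GSH2, the gene of the second enzyme, had 84.0, 92.7 and 85.5 FPKM after wounding, against 39.0, 37.6 and 40.8 FPKM in wounding mock (limma log2 fold change 1.14 with a standard error of 0.09, adjusted p = 0.00014). The sulfate transporter SULTR2;1 had 45.7, 52.1 and 50.3 FPKM after wounding, against 78.4, 55.0 and 65.9 FPKM in wounding mock.

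Components of long-distance signaling themselves were mostly not DEGs at 1 h, which was also true of all genes tested. The counts in this paragraph stand beside 5.28% of all genes that rose and 2.73% that fell. GLR3.3 and GLR3.6 are glutamate receptor-like channels needed for the calcium signal between leaves. GLR3.3 had 20.9, 20.2 and 20.9 FPKM after wounding, against 9.74, 6.98 and 8.53 FPKM in wounding mock (limma log2 fold change 1.21 with a standard error of 0.13, adjusted p = 0.00074). GLR3.6 had 1.43, 2.53 and 2.2 FPKM after wounding, against 2.48, 4.73 and 3.84 FPKM in wounding mock, a log2 fold change of −0.60 (adjusted p = 0.12 by limma), and it was low in all 6 libraries. Of the 12 tested channels, pumps and oxidases on this list, 2 rose, GLR3.3 and RBOHD, an NADPH oxidase that makes reactive oxygen at the cell surface. RBOHD had 41.1, 44.6 and 39.9 FPKM after wounding, against 7.18, 9.36 and 8.17 FPKM in wounding mock. The proton pump gene AHA1 and the vacuolar channel gene TPC1 had log2 fold changes of −0.14 and −0.63. GLR3.3 overlaps another annotated gene on its own strand. Among 10 tested calmodulin-like and calcium pump genes, CML12, also known as TCH3, had 17.0, 13.6 and 16.8 FPKM after wounding, against 0, 0.982 and 0.335 FPKM in wounding mock (log2 fold change 3.6), and CML39 rose by 1.49. The most abundant gene of that list, CML10, had 97.4, 115 and 109 FPKM after wounding, against 107, 131 and 186 FPKM in wounding mock, with wounding values inside or just below the range of wounding mock. MPK3 and MPK6, kinases of the early wound response, had log2 fold changes of −0.07 and 0.09. Their list held 2 raised genes of 13, MAPKKK21 and PEPR2. MAPKKK21 had 13.8, 18.8 and 16.9 FPKM after wounding, against 0, 0.0360 and 0.122 FPKM in wounding mock. PEPR2, a receptor of danger peptides, rose by 1.94 on the log2 scale.

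Stress transcription factors were a mixed group. The counts in this paragraph stand beside 5.28% of all genes tested that rose and 2.73% that fell. Of 10 tested AP2/ERF genes 6 rose and none fell. RAP2.6 had 40.1, 30.3 and 38.9 FPKM after wounding and was listed at 0 in wounding mock. ERF4, a repressor, had 83.3, 59.3 and 63.7 FPKM after wounding, against 7.83, 9.90 and 7.64 FPKM in wounding mock. ERF13 had 7.69, 5.84 and 7.08 FPKM after wounding, against 0.675, 0.0198 and 0 FPKM in wounding mock. Among the zinc finger repressors 3 of 5 rose. ZAT10 had 9.36, 7.39 and 7.13 FPKM after wounding, against 0, 0.180 and 0.00150 FPKM in wounding mock. Of 9 tested WRKY genes WRKY40 and WRKY18 rose, by 2.46 and 1.91, and WRKY11 fell by 1.03 on the log2 scale. WRKY33 and WRKY70 were not DEGs, with log2 fold changes of −0.36 and −0.65. Heat shock genes rose widely, 9 of 11 tested, with a median of 1.67. HSP70-4, a cytosolic chaperone, had 93.7, 79.0 and 84.4 FPKM after wounding, against 5.22, 9.05 and 11.2 FPKM in wounding mock. HSFA2, a heat shock factor, had 5.86, 7.91 and 5.93 FPKM after wounding, against 0.200, 0.233 and 0.259 FPKM in wounding mock. HSP90.1 and HSP101 rose by 2.19 and 1.65, whereas the small heat shock gene HSP21 was listed at 0 in all 6 libraries.

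Outside these pathways, the largest increases included polysaccharide and sugar genes. CSLA01, of the family of mannan synthases, had 193, 209 and 193 FPKM after wounding, against 0, 0.454 and 0.145 FPKM in wounding mock (limma log2 fold change 7.39 with a standard error of 0.15, adjusted p = 2.5e-07). ATCSLA15, annotated as a glycosyltransferase, had 115, 147 and 127 FPKM after wounding, against 1.18, 0.210 and 0.229 FPKM in wounding mock. GolS1, the galactinol synthase of the raffinose pathway, had 237, 224 and 216 FPKM after wounding, against 2.79, 3.64 and 2.39 FPKM in wounding mock. AT3G28220, which encodes a TRAF-like protein, reached one of the highest levels among all DEGs, with 1699, 1881 and 1760 FPKM after wounding, against 34.9, 23.1 and 21.5 FPKM in wounding mock. AT3G51450, annotated as a phosphotriesterase of the strictosidine synthase-like family, had 525, 529.6 and 504 FPKM after wounding, against 7.74, 7.14 and 7.25 FPKM in wounding mock. EDS5, the exporter of salicylic acid from the chloroplast, rose less than these, by 3.18 on the log2 scale. It had 14.5, 14.9 and 16.1 FPKM after wounding, against 0.828, 0.686 and 0.830 FPKM in wounding mock. RD20, a caleosin known from drought, had 175, 225 and 227 FPKM after wounding, against 5.76, 12.7 and 12.7 FPKM in wounding mock. All 7 had wounding libraries above every wounding mock library, as did every raised DEG. Reads could be shared between CSLA01, ATCSLA15 and their relatives.

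In the phenylpropanoid and anthocyanin list 4 of 13 rose and 1 fell, beside 5.28% and 2.73% of all genes tested. PAL1, the first enzyme, had 84.8, 79.5 and 77.6 FPKM after wounding, against 14.6, 15.8 and 19.2 FPKM in wounding mock. CHS, chalcone synthase, rose by 1.57 on the log2 scale over wounding mock, and its log2 fold change over the other mock group was 1.05 (adjusted p = 0.11 by limma). The gene that fell was MYBL2, a repressor of anthocyanin synthesis, with 1.39, 1.67 and 1.94 FPKM after wounding, against 6.23, 11 and 10.5 FPKM in wounding mock. PAP1, an anthocyanin activator, had a log2 fold change of 2.18 over wounding mock and of 0.48 over the other mock group (adjusted p = 0.11 by limma).

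The list of light harvesting and photosystems, the longest of all, held the most lowered DEGs but not the highest share of them. The share was larger in chlorophyll synthesis (4 of 8), xyloglucan endotransglucosylases (4 of 11) and early auxin response (8 of 23). It was also larger in cuticle wax and cutin (4 of 14) and in expansins (4 of 16). Of 42 tested genes of light harvesting, photosystems and RuBisCO none rose and 9 fell, which is 21.4% of the list against 2.73% of all genes tested, and 39 of 42 had a negative log2 fold change (median −0.39). After median-of-ratios scaling these were 7 lowered genes and 37 negative values. All 9 encode light harvesting proteins of photosystem II. LHCB2.1 had 123.2, 120.3 and 129 FPKM after wounding, against 573, 716 and 642 FPKM in wounding mock (limma log2 fold change −2.36 with a standard error of 0.11, adjusted p = 6.3e-06). LHCB2.2 had 188, 198 and 191 FPKM after wounding, against 593, 876 and 761 FPKM in wounding mock. LHCB2.3 had 14.7, 17.3 and 16.9 FPKM after wounding, against 87.9, 94.4 and 83.8 FPKM in wounding mock. The 3 LHCB2 genes are near copies of each other, as are the LHCB1 genes, so that the share of each is uncertain. LHCB1.1 had 234, 234 and 231 FPKM after wounding, against 1000, 1160 and 1286 FPKM in wounding mock. LHCB1.4 had 72.3, 76.6 and 73.5 FPKM after wounding, against 247, 427 and 270.3 FPKM in wounding mock. LHCB1.3, the most abundant, had a log2 fold change of −0.53 (adjusted p = 0.037 by limma), short of the threshold on fold change. LHCB1.2, LHCB1.5, LHCB3 and LHCB4.2 fell by 1.04, 1.55, 1.06 and 1.19 on the log2 scale. A further 12 genes of the list had an adjusted p below 0.05 by limma and lower values after wounding, short of the threshold on fold change. By adjusted p alone 21 of 42 were thus lower, against 10.9% of all genes tested, and in 30 of 42 all wounding libraries were below all wounding mock libraries, against 24.7% of all genes tested. LHCB4.1 had a log2 fold change of −0.12, the photosystem I antenna gene LHCA2 −0.15 and the RuBisCO small subunit gene RBCS1A −0.19.

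Chlorophyll synthesis fell alongside. Of 8 tested genes 4 fell, and all 8 had negative log2 fold changes, with a median of −1.17. CHLH, a subunit of magnesium chelatase, had 136, 157 and 139 FPKM after wounding, against 547, 356 and 291 FPKM in wounding mock (limma log2 fold change −1.42 with a standard error of 0.22, adjusted p = 0.0036). GUN4, an activator of the chelatase, had 31.9, 32.4 and 28.9 FPKM after wounding, against 96.0, 58.9 and 58.5 FPKM in wounding mock. PORB, a protochlorophyllide reductase, had 339, 336 and 329 FPKM after wounding, against 711, 768 and 882 FPKM in wounding mock. CAO, which makes chlorophyll b, had 17.5, 20.8 and 17.0 FPKM after wounding, against 38.5, 47.1 and 46.7 FPKM in wounding mock. HEMA1, the gene of the first enzyme of tetrapyrrole synthesis, had 18.8, 25.4 and 22.7 FPKM after wounding, against 107, 46.2 and 33.3 FPKM in wounding mock and an adjusted p of 0.056. Wounding mock replicate 1 was highest of all for CHLH, GUN4 and HEMA1, and without it GUN4 was no longer a DEG, with a log2 fold change of −0.90.

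**Figure D3:**
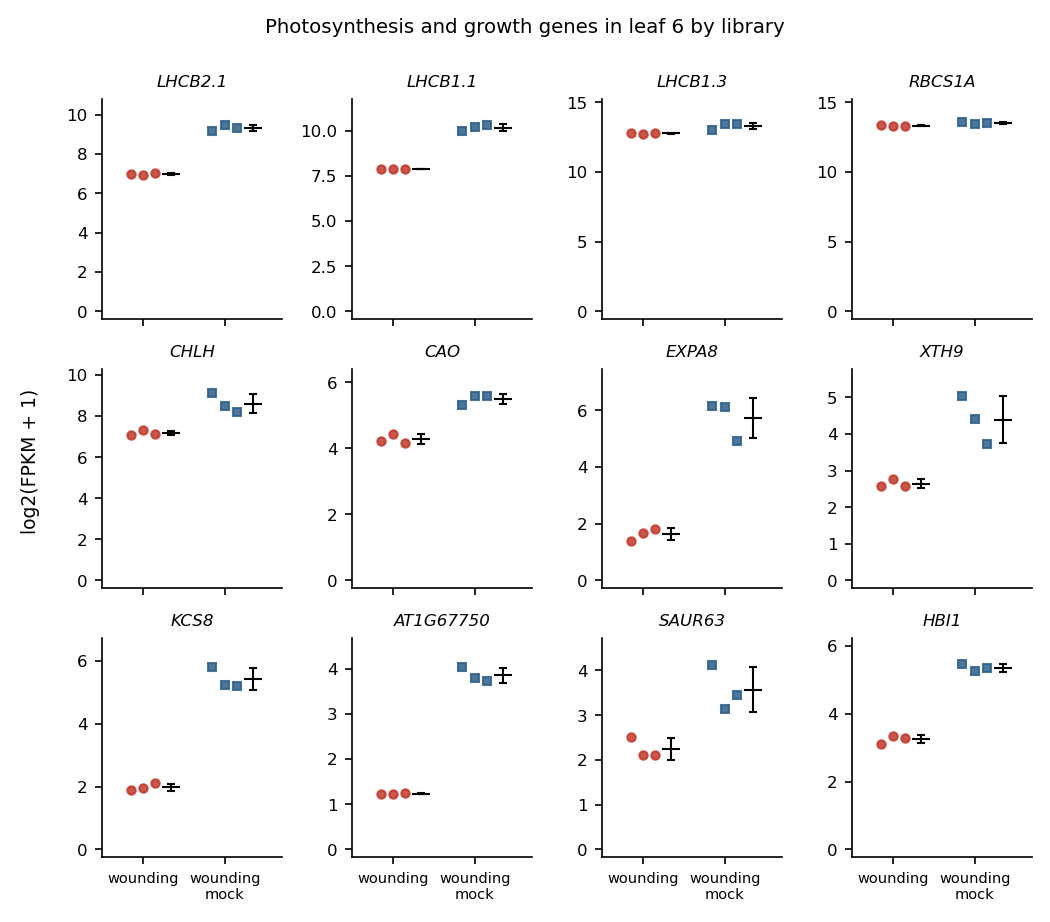
Expression of 12 photosynthesis and growth genes as log2(FPKM + 1) in the 3 wounding libraries (red circles) and the 3 wounding mock libraries (blue squares), with the mean and SD of each group. Wounding libraries lie below wounding mock for all 12, by the most in EXPA8 and by the least in RBCS1A, which like LHCB1.3 was not a DEG.

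In families of the cell wall and the cuticle some members fell while others rose. Of 16 tested expansin genes, whose products loosen the wall, 4 fell and 1 rose, with a median log2 fold change of −0.61. Over all genes tested 2.73% fell and 5.28% rose. EXPA8 had the largest decrease of all DEGs, with 1.61, 2.19 and 2.52 FPKM after wounding, against 69.5, 67.4 and 29.3 FPKM in wounding mock. EXPA11 and EXPA15 fell by 2.00 and 1.38 on the log2 scale. EXPA10 went the other way, with 307, 302 and 296 FPKM after wounding, against 44.0, 53.2 and 70.4 FPKM in wounding mock (limma log2 fold change 2.44 with a standard error of 0.16, adjusted p = 5.3e-05). EXPA1, next to it in abundance, had 219.9, 220 and 210.5 FPKM after wounding, against 122, 126 and 142 FPKM in wounding mock, a log2 fold change of 0.74 that was short of the threshold. Of 11 tested XTH genes, which cut and rejoin xyloglucan, XTH9, XTH31, XTH7 and XTH28 fell and XTH24 rose. XTH9 had 4.98, 5.88 and 4.92 FPKM after wounding, against 31.9, 20.07 and 12.3 FPKM in wounding mock, with its 3 wounding mock libraries far apart. XTH24 had 7.06, 6.17 and 7.49 FPKM after wounding, against 0, 0.628 and 0.531 FPKM in wounding mock. Pectin is acted on by pectate lyases, and AT1G67750, annotated as one, had 1.35, 1.32 and 1.38 FPKM after wounding, against 15.4, 12.9 and 12.2 FPKM in wounding mock (limma log2 fold change −2.62 with a standard error of 0.14, adjusted p = 1.4e-05). No cellulose synthesis gene of 8 and no cell division gene of 21 was a DEG. The median log2 fold change was −0.12 for the first list and −0.31 for the second, against −0.07 over all genes tested.

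In the cuticle, the wax list had 4 lowered genes and 1 raised gene of 14, beside 2.73% and 5.28% of all genes tested. KCS8, a ketoacyl-CoA synthase of very-long-chain fatty acids that is not on this list, had the second largest decrease of all DEGs, with 2.68, 2.83 and 3.28 FPKM after wounding, against 55.1, 36.5 and 35.5 FPKM in wounding mock (limma log2 fold change −3.44 with a standard error of 0.18, adjusted p = 1.6e-05). CER1 and CER3 act together in alkane formation, yet they moved apart. CER1 had 31.1, 35.7 and 31.1 FPKM after wounding, against 96.1, 102 and 90.6 FPKM in wounding mock. CER3 had 82.1, 76.8 and 75.3 FPKM after wounding, against 25.1, 23.56 and 22.1 FPKM in wounding mock. LACS2 and GPAT8, of cutin synthesis, and WSD1, a wax ester synthase, fell by 1.44, 1.09 and 1.07 on the log2 scale. Other strongly lowered genes were CIPK20, a kinase linked to calcium sensors, and DRT100, which encodes a leucine-rich repeat protein. CIPK20 had 0.925, 0.720 and 0.716 FPKM after wounding, against 16.0, 7.99 and 12.1 FPKM in wounding mock. DRT100 had 3.51, 4.41 and 3.78 FPKM after wounding, against 35.2, 22.1 and 19.6 FPKM in wounding mock. AT5G16030 had 8.84, 10.3 and 9.82 FPKM after wounding, against 106, 71.8 and 64.7 FPKM in wounding mock. It overlaps the noncoding gene AT5G02515 on the opposite strand, which fell by 2.61, and the reads of the pair cannot be told apart.

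Growth hormone genes gave a divided picture. Of 23 tested early auxin genes 8 fell and none rose, with a median log2 fold change of −0.57. All but 1 of those that fell were SAUR genes, which are linked to cell expansion and stand in tandem clusters of near copies. SAUR63 had 4.74, 3.31 and 3.31 FPKM after wounding, against 16.3, 7.79 and 9.87 FPKM in wounding mock. SAUR20 had 2.68, 2.13 and 1.96 FPKM after wounding, against 6.76, 6.93 and 5.51 FPKM in wounding mock. SAUR21, SAUR64, SAUR65, SAUR66 and SAUR67 fell by 1.23, 1.3, 1.03, 1.05 and 1.05. The other was IAA1, an auxin repressor, with 0.801, 2.49 and 3.14 FPKM after wounding, against 8.99, 6.01 and 5.24 FPKM in wounding mock. IAA3 had a log2 fold change of 0.96 (adjusted p = 0.045 by limma), just short of the threshold, and after median-of-ratios scaling the list held 5 lowered genes and 1 raised gene. In the gibberellin list 4 rose and 1 fell of 13, beside 5.28% and 2.73% of all genes tested. RGL3, a DELLA repressor of growth, had 20.2, 17.0 and 17.5 FPKM after wounding, against 1.02, 0.669 and 0.846 FPKM in wounding mock (limma log2 fold change 3.38 with a standard error of 0.14, adjusted p = 4.4e-06). GA2OX2, which inactivates gibberellin, had 2.59, 3.08 and 3.62 FPKM after wounding, against 0.240, 0.241 and 0.402 FPKM in wounding mock. GASA6, a gibberellin-induced growth gene, had 31.0, 26.7 and 28.8 FPKM after wounding, against 156, 123.2 and 98 FPKM in wounding mock. RGA, another DELLA gene, had 17.42, 17.81 and 17.3 FPKM after wounding, against 34.8, 34.8 and 29.1 FPKM in wounding mock. HBI1, a bHLH activator of cell elongation in the brassinosteroid pathway, had 7.64, 9.13 and 8.67 FPKM after wounding, against 42.8, 36.9 and 39.5 FPKM in wounding mock (limma log2 fold change −2.1 with a standard error of 0.11, adjusted p = 1.7e-05). CKX4 and CKX5, which break down cytokinin, rose by 2.55 and 2.01, while the response regulator genes ARR4 and ARR7 had log2 fold changes of 0.53 and 0.78, short of the threshold.

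The salicylic acid list held 1 raised and 1 lowered DEG among 8 tested genes. The abscisic acid and dehydration list held 1 raised and 2 lowered DEGs among 19. Over all genes tested 5.28% rose and 2.73% fell. Of 8 tested salicylic acid genes 7 had negative log2 fold changes, the exception being EDS5. By adjusted p alone 5 of 8 were lower, against 10.9% of all genes tested. In 7 of 8 all wounding libraries were below all wounding mock libraries, against 24.7% of all genes tested. PAD4, a lipase-like regulator of this pathway, was the 1 that fell, with 0.732, 1.48 and 0.967 FPKM after wounding, against 2.94, 3.94 and 3.72 FPKM in wounding mock. PR1, the usual marker of salicylic acid signaling, was listed at 0 in all 6 libraries. In the abscisic acid and dehydration list RD20 rose, and P5CS1, of proline synthesis, and CYP707A2, of abscisic acid breakdown, fell by 1.41 and 1.63. RD29A had 175, 176 and 175 FPKM after wounding, against 232, 308 and 403 FPKM in wounding mock. Of 12 tested ethylene genes 1 rose, beside 5.28% of all genes tested. It was ETR2, a receptor, with 1.62, 1.57 and 1.98 FPKM after wounding, against 0, 0.351 and 0.402 FPKM in wounding mock. The clock list had 1 raised and 1 lowered gene of 20, beside 5.28% and 2.73% of all genes tested. They were BOA, which rose by 1.02, and CHE, which fell by 1.001 on the log2 scale. By adjusted p alone 6 of the 20 were lower and 2 higher, against 10.9% and 8.76% of all genes tested. In 10 of 20 all wounding libraries were below all wounding mock libraries, against 24.7% of all genes tested. GI, an evening gene, had 36.8, 39.0 and 36.0 FPKM after wounding, against 75, 65.6 and 62.5 FPKM in wounding mock, a log2 fold change of −0.84 (adjusted p = 0.0013 by limma). Among genes of darkness and sugar starvation DIN10 fell by 1.32.

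In the iron list, wounding mock replicate 1 set much of the spread. The ferritin genes FER1 and FER4 fell. FER1 had 9.18, 9.33 and 8.46 FPKM after wounding, against 92.4, 28.8 and 19.3 FPKM in wounding mock. Wounding mock replicate 1 was the highest of all 6 libraries for both, and without it the log2 fold change of FER1 was −1.3 and that of FER4 −0.84, where FER4 was no longer a DEG. The iron deficiency factor bHLH100 had 16.6, 8.34 and 9.28 FPKM after wounding, against 0.510, 40.6 and 36.3 FPKM in wounding mock. Its relative bHLH39 had 13.1, 5.15 and 7.61 FPKM after wounding, against 0.416, 11.1 and 11.7 FPKM in wounding mock. For both, wounding mock replicate 1 was the lowest library, and the groups overlapped. IMA2, a peptide of iron deficiency, had 35.5, 18.8 and 29.1 FPKM after wounding, against 1.59, 15.1 and 20.9 FPKM in wounding mock. No iron gene rose over wounding mock, whereas 6 of 15 rose and 2 fell over the mock group of the GSH and Glu experiment.

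The comparison was repeated without wounding mock replicate 1. Then 845 genes (5.03%) rose and 500 (2.98%) fell. Of the original DEGs, 80 raised and 89 lowered genes lost the call, each through the threshold on fold change and none through the adjusted p, and all 1347 kept their sign. A further 37 raised and 130 lowered genes gained the call. The medians of the original DEGs were then 1.61 for raised and −1.20 for lowered genes. Among the genes named above, the calls of ETR2, SAUR65, XTH7, XTH28, GPAT8, FER4 and GUN4 were lost, and bHLH100 and RD29A became lowered DEGs.

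With the 3 mock libraries of the GSH and Glu experiment as the untreated leaves, 765 genes (4.55%) rose and 381 (2.27%) fell. These leaves came from another experiment, so differences between experiments are part of this comparison. The original raised DEGs had a median of 1.45 there and the lowered DEGs of −1.05. Of the 888 raised DEGs 193 lost the call and 6 changed sign, namely VSP1, VSP2, BCAT4, MBP1, AT1G14250 and the thionin gene AT1G66100. Of the 450 lowered DEGs tested there 198 lost the call and 1 changed sign, AT1G62510. The JAZ repressors kept 10 of 11 raised genes, with a median of 3.04, against 4.77 over wounding mock. JA catabolism kept 10 of 10, with 4.66 against 5.63. LOX2 averaged 1649 FPKM in these mock libraries and 449 FPKM in wounding mock, with log2 fold changes of 1.325 and 3.18. JAZ9 averaged 49.1 and 9.775 FPKM, with 4.06 and 6.355. ARGAH2 averaged 143 and 30.5 FPKM, with 2.65 and 4.83. JAZ10 and CYP94B1 had 6.89 and 6.75 there, against 6.93 and 6.76 over wounding mock. Light harvesting kept 6 lowered genes of 42. Other lowered lists held fewer calls there. Early auxin response had 4 lowered genes there, against 8 over wounding mock. The xyloglucan endotransglucosylase list and the list of cuticle wax and cutin each had 1 lowered gene there, against 4 over wounding mock. Chlorophyll synthesis had 2 there, against 4 over wounding mock, with log2 fold changes over the other mock group of −0.90 for PORB, −0.84 for CAO and −0.49 for GUN4.

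**Figure D4:**
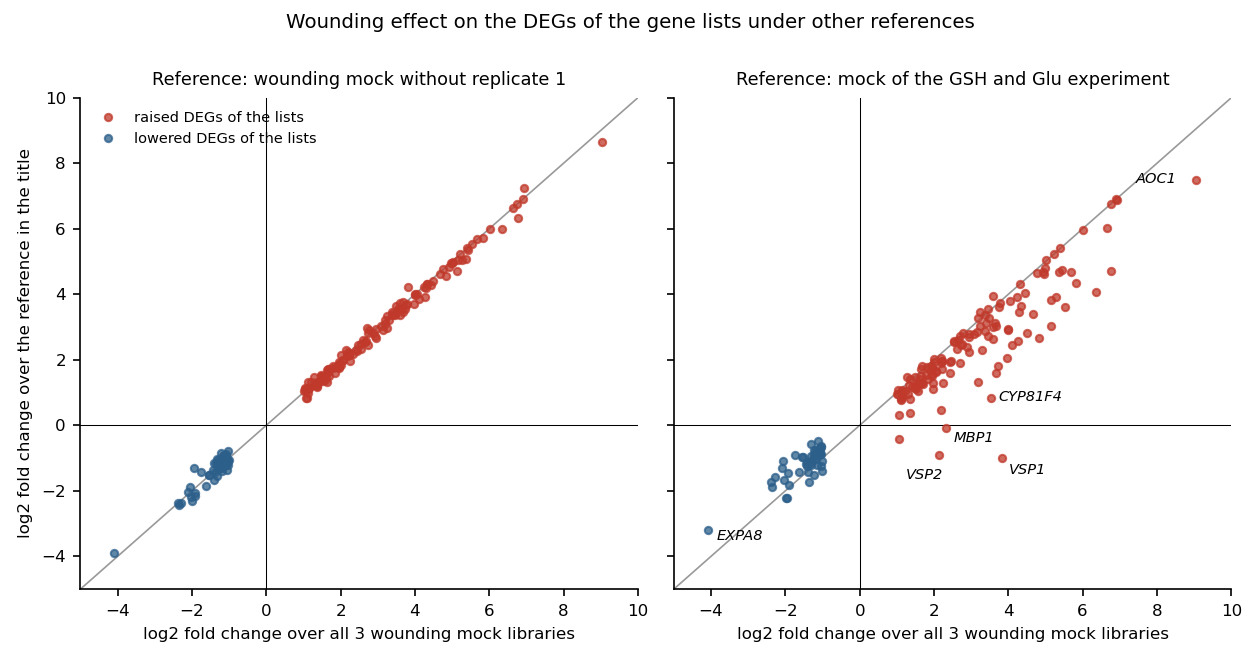
Log2 fold changes of the DEGs of the gene lists, wounding over all 3 wounding mock libraries (x axis), against wounding over wounding mock without replicate 1 (left, y axis) and over the mock group of the GSH and Glu experiment (right, y axis); the diagonal marks equal values. Points lie close to the diagonal on the left, and on the right VSP1, VSP2 and MBP1 fall below 0.

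Whether wounding differed from application of GSH or Glu to leaf 1 was tested as a difference of effects, each over its own untreated group, over 12 libraries with limma. The wounding effect minus the GSH effect passed the thresholds for 1202 of 17415 genes (6.9%), and the wounding effect minus the Glu effect for 1272 of 17403 genes (7.31%). In the JAZ list the wounding effect was above the GSH effect for 9 of 11 tested genes. It was above the Glu effect for 9 of 11, and below either for none. For JA catabolism the wounding effect was above both in 10 of 10 genes, and for the defense and volatile list in 15 of 15. These are differences of effects and not of levels. VSP1 and VSP2 are among the 15, although both averaged less after wounding than in the mock group. JAZ10 had log2 fold changes of 6.93 after wounding, 2.66 after GSH and 1.86 after Glu. CYP94B1 had 6.76 after wounding, 1.65 after GSH and 1.32 after Glu. The wounding effect on indole glucosinolate genes was higher in 14 of 17 and lower in 1 of 17 in both tests. That on sulfur genes was higher in 11 of 21 against GSH and 10 of 21 against Glu. MYB34 had 3.45 after wounding, 0.73 after GSH and 0.46 after Glu. The lowered groups differed as well. For light harvesting genes the wounding effect was the lower one in 6 of 42 against GSH and in 9 of 42 against Glu. For early auxin genes it was lower in 5 of 23 against GSH and 6 of 23 against Glu. LHCB2.1 had −2.36 after wounding, −0.40 after GSH and 0.12 after Glu. SAUR20 had −1.18 after wounding, 0.09 after GSH and −0.12 after Glu. Cellulose synthesis, cell division and iron genes (8, 21 and 15 tested) gave no gene that passed in either test, beside 6.9% and 7.31% of all genes. This does not show equal effects on the iron genes. Of these, GSH raised 5 and Glu 2, while wounding raised none and lowered 2. Their median log2 fold changes were 1.07 after GSH, 0.20 after Glu and −0.02 after wounding. The GSH and Glu effects share their mock libraries, and the wounding experiment and its untreated leaves are separate from theirs, so the treatment and the experiment cannot be told apart beyond each untreated group.

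**Figure D5:**
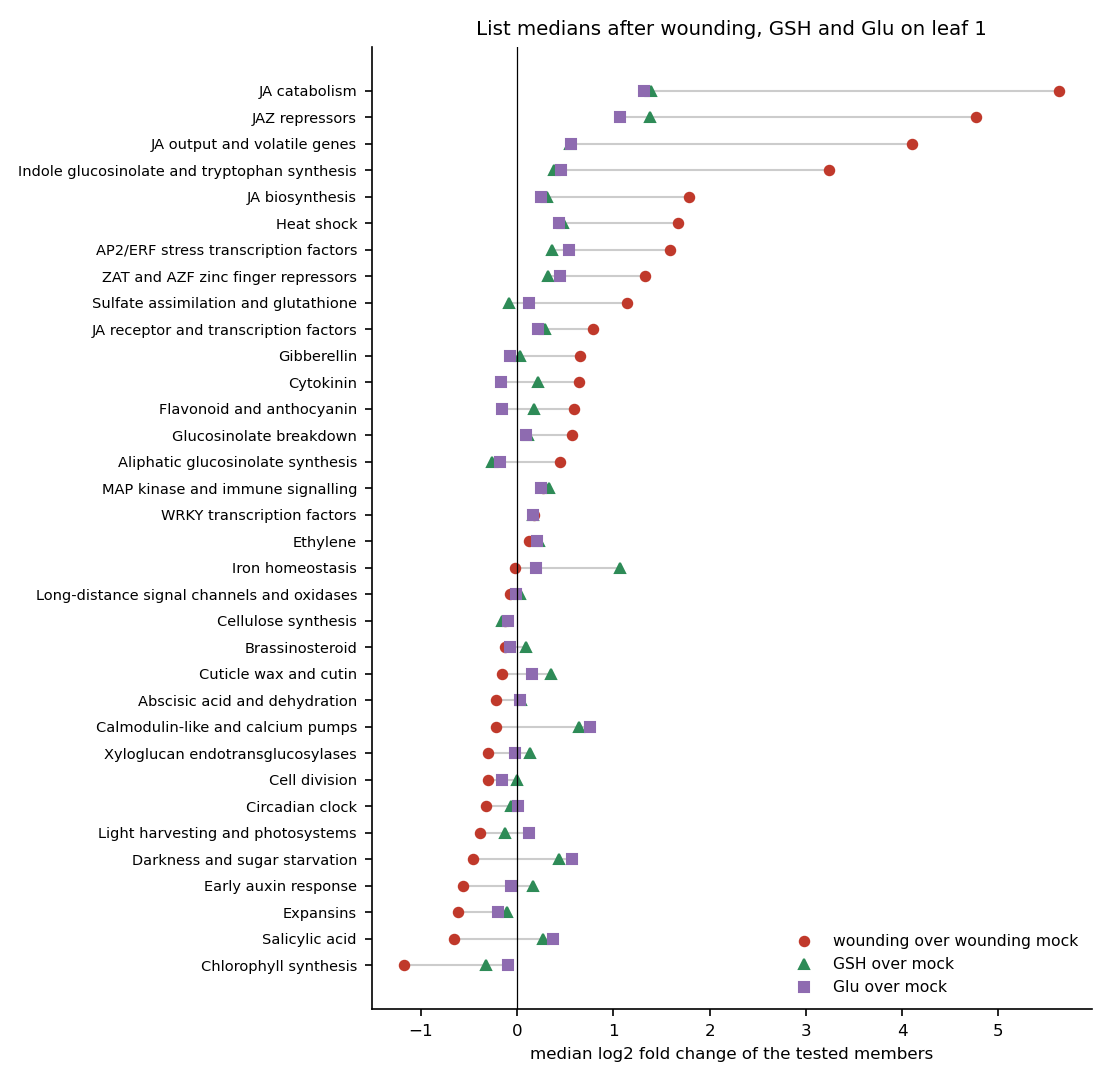
Median log2 fold change of the tested members of 34 gene lists after wounding over wounding mock (red circles), GSH over mock (green triangles) and Glu over mock (purple squares). After wounding, JA catabolism lies furthest to the right, at 5.63, and chlorophyll synthesis furthest to the left, at −1.17.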

How the data were processed

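Per the labels and the study's methods, RNA of leaf 6 was made into libraries with a NEBNext Ultra kit. The submitters' processing notes list cutadapt, Trimmomatic, HISAT2, StringTie, DESeq2 1.16.1 and TAIR10. The authors deposited 1 table of FPKM values for 32833 genes, which is named as counts but holds StringTie FPKM, so a count test was not used. No depth can be derived from these values. The members and all gene lists (34 pathway and 8 marker lists, 660 genes, of which 659 were analysed) were chosen with earlier results of these data known.

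Genes that reached 1 FPKM in at least 3 of the 6 libraries were compared as log2(FPKM + 1) with limma 3.58.1 in R 4.3.3, with a variance trend and no block, because the replicate numbers are not said to mark shared plants or days. Tests were two-sided, and p values were adjusted by Benjamini-Hochberg over all genes tested. With 3 against 3 libraries an exact permutation test of 1 gene cannot go below p = 0.1. The thresholds were those of the study. Differences between treatments were contrasts of 2 effects over 12 libraries. Named genes were the 15 raised and 15 lowered DEGs with the largest fold change, no overlap between groups and at least 5 FPKM in the higher group, up to 5 DEGs and the 2 most abundant genes of each list, genes the study names, and near copies of these. Further list members, the product families of the closing section and the printed promoters were chosen after their values were seen. Promoters and overlapping genes were read from RefSeq's TAIR10.1, which holds 99.13% of the gene IDs. The code was tested on simulated data.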

Additional observations from a re-analysis of the deposited data

Results flagged for a closer look

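The effect of wounding differed from that of the small molecules in tests of the difference itself, made with limma over 12 libraries. Against GSH, the wounding effect was higher for 680 genes and lower for 522. Against Glu, it was higher for 730 genes and lower for 542. CYP94B3, the JA-Ile hydroxylase gene, had a wounding effect 5.96 above its GSH effect on the log2 scale. The wounding effect on AOC1 was 5.02 above its GSH effect and 5.48 above its Glu effect. EXPA8, an expansin gene, had differences of −3.82 against GSH and −3.72 against Glu. KCS8 had a difference of −2.67 against GSH.

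Opposite signs were seen in WSD1, EXPA10 and LHCB1.4. WSD1, a wax ester synthase gene, had log2 fold changes of −1.07 after wounding and 1.27 after GSH, a difference of −2.35. EXPA10 had 2.44 after wounding and −1.06 after Glu, a difference of 3.5. LHCB1.4 had −2.03 after wounding and 1.05 after Glu, a difference of −3.08. All of these genes passed the thresholds on adjusted p and size in their test. Groups of 3 libraries are too small for an outlier test.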

How the results depend on the processing

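By the adjusted p alone, 3303 genes passed, 1472 higher and 1831 lower. Median-of-ratios scaling, which moved the median over all genes by 0.08 on the log2 scale, gave 1321 DEGs (973 raised, 348 lowered), and with the adjusted p alone, a combination chosen after seeing the data, 3109 genes, 1795 higher and 1314 lower. A pseudocount of 0.1 gave 1644 DEGs, no filter 1270, a filter on the mean 1317, no variance trend 1346, all 15 libraries in the fit 1394, and the mock group of the GSH and Glu experiment 1146. Leaving out each library in turn gave 1197 to 1418 DEGs, 830 to 923 raised and 365 to 500 lowered.

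With the replicate number as a block there were 1375 DEGs (905 raised, 470 lowered), and no gene named in the report changed its call. Deviations of same-numbered libraries correlated with r = 0.184, 0.212 and −0.001, and those of differently numbered libraries with r between −0.200 and 0.096. Deviations within a group depend on each other, so these values cannot decide whether same-numbered libraries share plants or days. The differences from GSH and Glu passed for 1199 and 1267 genes with the block, for 1379 and 1458 with a pseudocount of 0.1, and for 1317 and 1375 without wounding mock replicate 1.

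Of 204 named genes 165 were DEGs, and 126 of these kept the call and sign under all 14 settings. Of the DEGs, 36 lost the call with the same sign under at least 1 setting and 4 changed sign under at least 1. The counts of 36 and 4 overlap. The sign changed against the mock group of the GSH and Glu experiment for VSP1 (−0.99), VSP2 (−0.90), BCAT4 (−0.41), MBP1 (−0.073), MAM1 (−0.66) and bHLH100 (1.43), with median-of-ratios scaling for MPK3 (0.019), and without wounding mock replicate 1 for bHLH39 (−0.45, with 1.13 as the highest value when single libraries were left out). The value of bHLH100, −0.16 over all 6 libraries, was 0.18 with a pseudocount of 0.1, and −1.73 to 0.67 when single libraries were left out. The cause of these changes was not tested. Depth is unknown, so whether a gene listed at 0 was absent or missed cannot be told apart.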

Other observations

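Outside the pathway lists, genes grouped by the annotated product gave further patterns, all chosen after their values were seen and described by counts alone. Of 32 tested MATE efflux transporter genes 11 rose and none fell, while the family's median log2 fold change was 0.16. AT1G66760 had the largest rise among them, with 127, 129.9 and 125 FPKM after wounding, against 2.1, 2.86 and 2.13 FPKM in wounding mock. Of 7 mannose-binding lectin genes 4 rose, and of 5 protease inhibitor genes 3 rose, among them AT1G73325, with 50.7, 56.7 and 52.5 FPKM after wounding, against 0.646, 0.956 and 0.174 FPKM in wounding mock. Terpene synthase genes rose in 3 of 5 cases. Genes annotated with the words NAC domain rose in 5 of 24, a match that leaves out the raised ANAC072. Genes annotated as UDP-glycosyltransferases, with GBSS1 among those that rose, rose in 12 and fell in 3 of 70. Against these counts, 5.28% of all genes tested rose and 2.73% fell.

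Other families leaned to lower values. Of 37 pectin lyase-like genes 10 fell and 2 rose, and of 41 GDSL lipase genes 10 fell and 7 rose. Homeobox-leucine zipper genes fell in 5 of 15 cases, with HAT1, HAT2 and HAT3, which are linked to shade responses, at log2 fold changes of −1.84, −1.32 and −1.59. Of 13 B-box genes, which act in light signaling, 5 fell and 1 rose, and BBX28 had 0.494, 0.936 and 0.520 FPKM after wounding, against 4.60, 4.15 and 6.26 FPKM in wounding mock. Of 14 ketoacyl-CoA synthase genes 5 fell and none rose, namely KCS8, KCS12, KCS19, KCS16 and KCS5. The log2 fold change of KCS5 was −1.001. It was −0.69 without wounding mock replicate 1 and −0.68 over the mock group of the GSH and Glu experiment, so KCS5 was a DEG in neither. Single genes with large increases included BAM5, a β-amylase gene with 60.1, 90.6 and 75.2 FPKM after wounding, against 0.208, 1.02 and 0.485 FPKM in wounding mock. NATA1, an acetyltransferase gene of ornithine, had 45.5, 33.8 and 33.9 FPKM after wounding, against 0.230, 0.190 and 0.525 FPKM in wounding mock. In the mock group of the GSH and Glu experiment BAM5 averaged 23.51 FPKM and NATA1 26.3 FPKM, and the log2 fold changes of wounding over that group were 1.703 for BAM5 and 0.51 for NATA1, so that NATA1 was not a DEG there.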
